A study of Mus musculus with 17 samples.

Results

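The genes described here are 10 genes of vascular mural cells, the smooth muscle cells and pericytes that wrap vessels: Acta2, Tagln, Myh11, Cnn1, Smtn, Pdgfrb, Rgs5, Notch3, Des and Mcam. They were chosen by name, as all probe sets that the array's annotation gives to 1 of these symbols and to no other gene. This gave 19 probe sets of the 34958 annotated to a single gene, and 10 genes of 18194. RNA was measured in the cord of 17 female C57BL/6 mice, 8 weeks old per the labels, with 1 array per mouse. The anti-RGMa group (6 mice) and the isotype control group (5 mice) had targeted EAE. These mice were immunized with a MOG peptide in complete Freund's adjuvant, received TNF-α and IFN-γ into the thoracic cord after a dorsal laminectomy 3 weeks later, and were given pertussis toxin. They then received a humanized antibody against RGMa (repulsive guidance molecule a) or palivizumab as isotype control, both at 10 mg/kg from 9 days post cytokine injection (DPI). Cord 4.5 mm wide around the injection site was taken at 14 DPI. The 6 naïve mice are labelled as not treated, so that in any comparison with them the immunization, the surgery, the toxin and the antibody cannot be told apart. Age cannot be told apart from these either, since the labels give a single age for all mice and the cord of mice with EAE was taken 14 days after an injection that itself came 3 weeks after immunization.

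Mural cells give vessels their tone and their stability. Arteriolar smooth muscle cells contract through actin and myosin, and their contractile genes are switched on by serum response factor (SRF) with myocardin or related cofactors, which bind CArG boxes near the start of these genes. Pericytes, on the capillaries, are held to the endothelium by PDGF-B acting on the receptor Pdgfrb, and their loss opens the blood-brain and blood-spinal cord barriers. Several of the contractile genes are not specific to vessels. Myofibroblasts also use Acta2 and Tagln, and desmin, the product of Des, is an abundant filament of skeletal muscle.

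The promoters of Acta2 and Smtn are shown because these 2 genes had groups that did not overlap between the antibodies, and because the start of Acta2 carries CArG-like boxes, which the windows of the 6 other members with a sequence did not. The share of all genes whose antibody groups do not overlap was not counted, so this choice does not set the 2 genes apart from other genes. The sequences are those of RefSeq on GRCm38.p6, 250 bases before and 50 after the annotated start, and 7 of the 10 genes were matched (Acta2, Cnn1, Smtn, Rgs5, Notch3, Des and Mcam). Capitals mark CArG-like boxes, in which a pair of C and a pair of G enclose 6 bases of which at least 5 are A or T. The Acta2 window is chr19:34255324-34255623, minus strand, and the Smtn window is chr11:3539243-3539542, minus strand.
Acta2: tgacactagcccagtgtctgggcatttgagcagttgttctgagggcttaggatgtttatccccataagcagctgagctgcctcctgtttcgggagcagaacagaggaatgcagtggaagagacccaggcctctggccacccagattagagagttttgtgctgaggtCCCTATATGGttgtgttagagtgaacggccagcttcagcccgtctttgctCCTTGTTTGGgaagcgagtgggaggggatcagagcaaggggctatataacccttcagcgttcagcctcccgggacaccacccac
Smtn: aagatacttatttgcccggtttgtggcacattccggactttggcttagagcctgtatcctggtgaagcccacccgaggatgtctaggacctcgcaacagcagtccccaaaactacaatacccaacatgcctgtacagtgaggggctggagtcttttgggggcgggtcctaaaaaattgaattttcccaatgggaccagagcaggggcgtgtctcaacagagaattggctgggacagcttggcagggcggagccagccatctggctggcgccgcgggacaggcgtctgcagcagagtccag
Acta2 held 2 CArG-like boxes, which begin 84 and 34 bases before its start. At least 1 such box was found, on either strand, in 9.98% of 32841 windows of this length. The strict CArG box, with all 6 inner bases A or T, was in the window of 0 of the 7 members and in 1.63% of all windows. Acta2 and Smtn were also the 2 of these 7 members with CATTCC, the core of the MCAT element bound by TEAD factors (14.7% of all windows), and the 2 with TGGGAA, the core of the RBPJ site of Notch signalling (25.6% of all windows). The TGGGAA of Acta2 overlaps its second CArG-like box. With 7 windows, the counts of CATTCC and TGGGAA cannot be told apart from the shares over all windows. Tagln, Myh11 and Pdgfrb had no sequence to search. These matches describe letters, and binding was not measured.

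Values are log2 of the deposited signal. The text gives the probe set with the highest mean over the 17 arrays for each gene first, and then the others. In the comparisons with naïve mice a change was called at a limma p adjusted by Benjamini-Hochberg under 0.05 and a fold change over 1.5. Between the antibody groups the call was that of the study, with the same fold and a p under 0.05 before adjustment. At an adjusted p under 0.05 this comparison had 0 of 18194 genes called by limma (0.00%), and 2725 genes had a p under 0.05 before adjustment. The median array signal was 136 to 157 in anti-RGMa mice, 137 to 165 in isotype control mice and 132 to 145 in naïve mice. The cord was recognisable in all groups, with mean log2 signals of the oligodendrocyte list of 13.57 to 13.93 in anti-RGMa mice, 13.38 to 13.70 in isotype control mice and 13.65 to 13.84 in naïve mice. The neuron list was not level, with 11.07 to 11.86 in anti-RGMa mice, 10.91 to 11.50 in isotype control mice and 12.14 to 12.32 in naïve mice. All 8 of its genes were higher in anti-RGMa than in isotype control mice, 1 of them called, with a median log2 difference of 0.46. All 8 were lower in isotype control than in naïve mice, 7 of them called, with a median of -1.0. These differences run opposite to those of the called members, and their part in the members' results was not tested. Nothing in the sources says that mice of the same number belong together, and precision is limited by how many arrays there are.

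Some arrays carried skeletal muscle RNA, and this bears on the members. The mean log2 signal of 31 skeletal muscle genes was 5.72 to 6.93 in anti-RGMa mice. It was 5.57, 5.37, 8.39, 12.10 and 8.34 in isotype control mice 1 to 5, and 4.75 to 7.39 in naïve mice. Isotype control mouse 4, and less so mice 3 and 5, thus stood above the other mice, while mice 1 and 2 lay within the range of naïve mice. Of the 31 genes, 7 were called lower in anti-RGMa mice than in isotype control mice, with a median log2 difference of -1.62, and 30 of 31 differences were below 0. Over single omissions that count ran from 1 (without anti-RGMa mouse 1) to 20 (without isotype control mouse 2). Against naïve mice, isotype control mice had 13 of the 31 higher and 1 lower, led by Neb (nebulin, 4.46) and Tnni2 (fast troponin I, 4.27), and the count of higher genes ran from 8 (without naïve mouse 1) to 21 (without isotype control mouse 2). Of 11 genes of myoblasts and regenerating muscle, cells that can also make Acta2 and Des, 5 were called lower in anti-RGMa than in isotype control mice (median -1.75), among them Mymk, needed for myoblast fusion (-2.03). The mean log2 signal of these 11 was 3.35 to 4.86 in anti-RGMa mice. It was 4.0, 4.08, 6.93, 8.40 and 5.04 in isotype control mice 1 to 5, and 3.01 to 4.64 in naïve mice. The count of 5 ran from 2 (without anti-RGMa mouse 3) to 7 (without isotype control mouse 1), and it was 0 with the muscle covariate and also without isotype control mice 3, 4 and 5, where 1 gene was called higher. Against naïve mice 4 of the 11 were called higher and 1 lower in isotype control mice, where 17.1% of all genes were higher and 14.8% lower. Without naïve mouse 1, 0 of the 11 were higher. A list of 16 fibroblast and myofibroblast genes was also highest in isotype control mice 4 and 3, with mean log2 signals of 8.75 to 10.18 in anti-RGMa mice, 9.88 to 12.42 in isotype control mice and 8.16 to 8.88 in naïve mice. Results on the members are therefore given also with the muscle signal as a covariate and without isotype control mice 3, 4 and 5, which leaves only mice 1 and 2 in that group. These 2 settings are given for each changed call of a gene's brightest probe set, and for the dimmer probe sets only in part.

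Between the antibody groups, 5 of the 10 genes were called lower in anti-RGMa mice than in isotype control mice and 0 higher. They were the contractile genes Acta2, Tagln and Smtn, the receptor gene Pdgfrb and Des. Over all genes 2.73% were called lower and 1.23% higher. The median log2 difference was -1.06 for the 5 contractile genes (Acta2, Tagln, Myh11, Cnn1 and Smtn) and -0.29 for the 5 other mural cell genes, against 0.01 over all genes. In bulk tissue fewer mural cells, less RNA per cell and a change in other cells that make these genes cannot be told apart. With the muscle covariate, or without isotype control mice 3, 4 and 5, Acta2, Tagln, Smtn and Pdgfrb were called and Des was not.

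**Figure D1:**
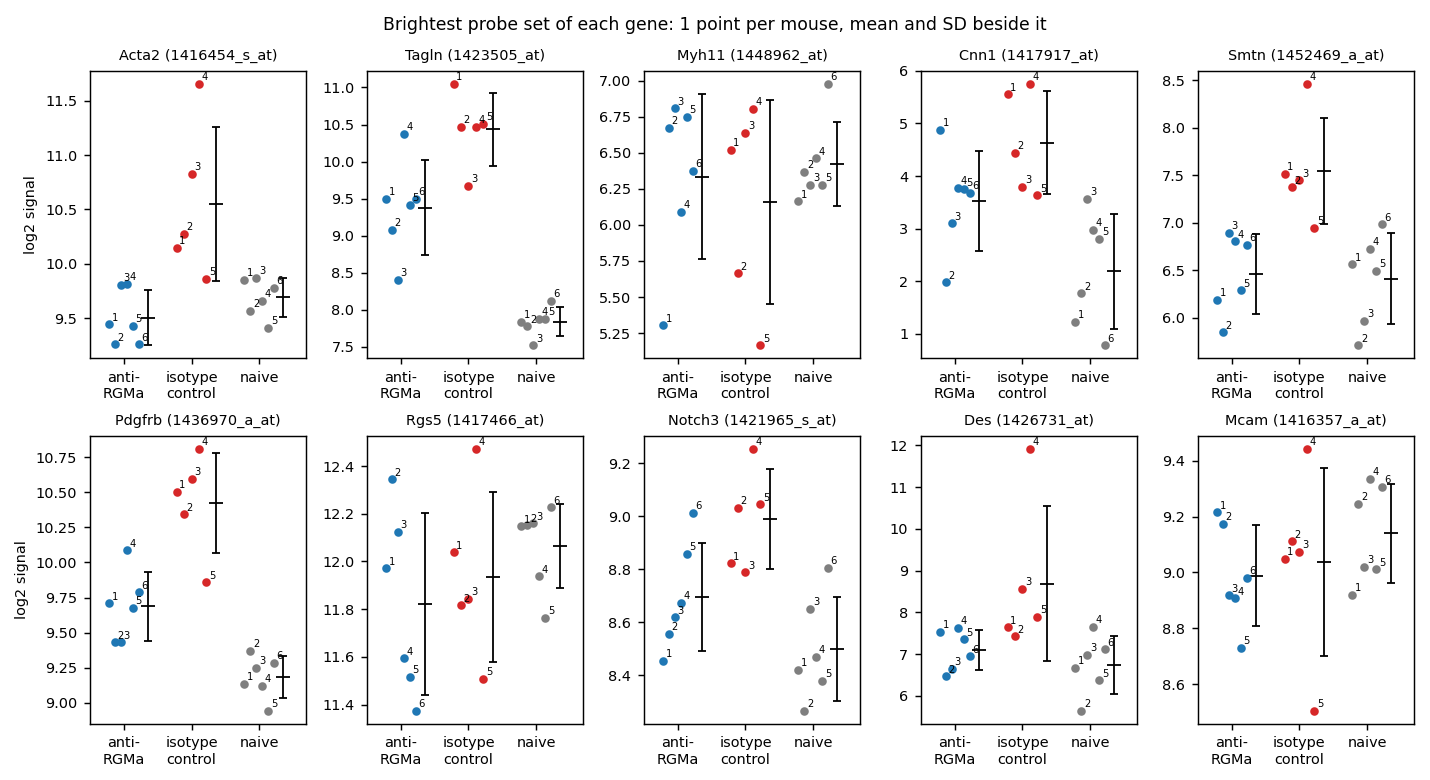
Log2 signal (y axis) of the brightest probe set of each of the 10 genes in anti-RGMa, isotype control and naïve mice. Each point is a mouse with its replicate number, and the bar beside it is the mean ± SD (n = 6, 5 and 6). The y axes do not start at 0. Acta2 and Smtn do not overlap between the antibody groups, and Tagln and Pdgfrb lie above the naïve mice in both groups with EAE. How often this occurs over all genes was not counted.

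Acta2 codes for smooth muscle α-actin, the main thin filament protein of vascular smooth muscle. Its log2 signal (1416454_s_at) had a lowest value of 9.26, a median of 9.44 and a highest of 9.82 in anti-RGMa mice. In isotype control mice 1 to 5 it was 10.15, 10.27, 10.83, 11.66 and 9.86, and in naïve mice it ran from 9.41 over a median of 9.72 to 9.87. All anti-RGMa mice lay below all isotype control mice, within reach of the naïve range, and isotype control mouse 4, the one with most muscle signal, was the highest of all. The suffix _s_at marks probes that may bind transcripts of other genes. Acta1, an actin gene of the skeletal muscle list, was 7.04, 6.00, 12.05, 14.46 and 10.66 in isotype control mice 1 to 5. Its part in the signal of this Acta2 probe set was not tested. The mean was 9.50 ± 0.25 in anti-RGMa mice, 10.55 ± 0.71 in isotype control mice and 9.69 ± 0.18 in naïve mice (SD). The log2 difference between the antibodies was -1.05 (SE 0.25, limma adjusted p = 0.260). It was -0.77 without isotype control mouse 4, -0.77 with the muscle covariate and -0.71 without mice 3, 4 and 5, and it was called in each case.

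Against naïve mice Acta2 was 0.86 higher in isotype control mice (SE 0.25, limma adjusted p = 0.0087), a call that was lost with the muscle covariate (0.46), without isotype control mice 3, 4 and 5 (0.52) and with the mean of the 3 probe sets of Acta2 (0.75). Anti-RGMa and naïve mice differed in Acta2 by -0.19, with a 95% interval of -0.69 to 0.31. Its 2 other probe sets were dim, below the median of their array in all 17 mice. Of these, 1456658_at was called lower in anti-RGMa than in isotype control mice by -1.10, and the call was lost with the muscle covariate (-0.99) and without any 1 of anti-RGMa mice 1 and 5 and isotype control mice 1, 3 and 4, with values of -0.82 to -1.28 over all single omissions. The other, 1444105_at, differed by -0.61, which shrank to -0.01 without anti-RGMa mouse 6, and was not called.

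Tagln codes for transgelin (SM22α), an actin-binding protein of smooth muscle and of myofibroblasts, and it is the member with the largest change between EAE and naïve cord. Its log2 signal (1423505_at, its only probe set) had a lowest value of 8.41, a median of 9.45 and a highest of 10.38 in anti-RGMa mice. It was 11.05, 10.47, 9.67, 10.47 and 10.51 in isotype control mice 1 to 5, against 7.52 to 8.12 in naïve mice with a median of 7.86. Every mouse with EAE lay above every naïve mouse, and the antibody groups overlapped through anti-RGMa mouse 4 and isotype control mouse 3. The highest value was that of isotype control mouse 1, which had little muscle signal.

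Tagln was 1.54 higher in anti-RGMa than in naïve mice (SE 0.27, 2.91-fold, limma adjusted p = 0.00038) and 2.60 higher in isotype control than in naïve mice (SE 0.28, 6.06-fold, limma adjusted p = 2.7e-06). The difference between the antibodies was -1.06 (SE 0.28, limma adjusted p = 0.262). It was -1.10 with the muscle covariate and -1.38 without isotype control mice 3, 4 and 5, so that it was as large in both settings.

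Smtn codes for smoothelin, a cytoskeletal protein of fully contractile smooth muscle. Its log2 signal (1452469_a_at, its only probe set) was dim, below the array median in 13 of 17 mice. It had a lowest value of 5.84, a median of 6.53 and a highest of 6.90 in anti-RGMa mice. It was 7.52, 7.37, 7.45, 8.47 and 6.94 in isotype control mice 1 to 5, and 5.71 to 6.98 in naïve mice with a median of 6.53. As with Acta2, the antibody groups did not overlap, by a gap between anti-RGMa mouse 3 and isotype control mouse 5 that was small, and the anti-RGMa and naïve ranges covered each other.

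The log2 difference of Smtn between the antibodies was -1.09 (SE 0.28, limma adjusted p = 0.260). It was -0.82 with the muscle covariate and -0.98 without isotype control mice 3, 4 and 5. Isotype control mice exceeded naïve mice by 1.14 (SE 0.28, limma adjusted p = 0.0033), which fell short of the call with the muscle covariate (0.76, adjusted p = 0.051). Anti-RGMa and naïve mice differed in Smtn by 0.06, with a 95% interval of -0.52 to 0.63.

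Cnn1 codes for calponin 1, which binds actin and restrains the myosin ATPase of smooth muscle. Its log2 signal (1417917_at) was very dim, below the array median in all 17 mice. It had a lowest value of 1.98, a median of 3.71 and a highest of 4.88 in anti-RGMa mice, against 5.55, 4.44, 3.80, 5.76 and 3.63 in isotype control mice 1 to 5 and 0.78 to 3.57 in naïve mice with a median of 2.29. The isotype control and naïve groups did not overlap, by a small margin. Cnn1 was called higher in isotype control than in naïve mice (2.45, SE 0.58, limma adjusted p = 0.0025), also with the muscle covariate (2.25). The difference between the antibodies, -1.11 (SE 0.58), was not called, but it passed without anti-RGMa mouse 1 (-1.38) or isotype control mouse 5 (-1.36). That between anti-RGMa and naïve mice, 1.34 (SE 0.56, limma adjusted p = 0.0705), passed without anti-RGMa mouse 2 (1.65) or naïve mouse 3 (1.61).

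Myh11, the smooth muscle myosin heavy chain and the most specific of the contractile genes, was not called in any comparison on its brighter probe set (1448962_at). Its log2 signal there was 5.30 to 6.81 in anti-RGMa mice with a median of 6.52. It was 6.52, 5.67, 6.64, 6.81 and 5.17 in isotype control mice, and 6.16 to 6.98 in naïve mice with a median of 6.32. The 3 groups lay over each other, and both probe sets were below the array median in all 17 mice. The difference between the antibodies was 0.17, with a 95% interval of -0.49 to 0.84, and that between isotype control and naïve mice was -0.26, with an interval of -0.93 to 0.40. The second probe set (1418122_at) moved otherwise. It was called higher in isotype control than in naïve mice by 1.13 (SE 0.39, limma adjusted p = 0.024), which was lost with quantile normalization (0.97) and without isotype control mouse 1 or 5 or naïve mouse 5 (0.90 to 1.39 over all single omissions). The probe sets of Myh11 thus disagreed, at signals where both are uncertain.

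Pdgfrb codes for the receptor through which PDGF-B recruits and keeps pericytes, and it is also made by perivascular fibroblasts. Its log2 signal (1436970_a_at) had a lowest value of 9.43, a median of 9.69 and a highest of 10.09 in anti-RGMa mice. It was 10.50, 10.34, 10.60, 10.81 and 9.86 in isotype control mice 1 to 5, against 8.94 to 9.37 in naïve mice with a median of 9.19. The groups formed 3 steps. All mice with EAE lay above all naïve mice, and only isotype control mouse 5 fell within the anti-RGMa range.

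Pdgfrb had the smallest errors among the members called between the antibodies, with a log2 difference of -0.74 (SE 0.16, limma adjusted p = 0.260). It was -0.68 with the muscle covariate and -0.74 without isotype control mice 3, 4 and 5. Isotype control mice exceeded naïve mice by 1.24 (SE 0.16, 2.36-fold, limma adjusted p = 1.2e-05), and by 1.15 with the muscle covariate. Anti-RGMa mice exceeded naïve mice by 0.50 (SE 0.15, limma adjusted p = 0.014), which passed the adjusted p but not the fold of 1.5. The second probe set (1417148_at) was called in all 3 comparisons, with -0.74 between the antibodies, 0.95 for anti-RGMa over naïve mice and 1.69 for isotype control over naïve mice. Its call between the antibodies was lost with the muscle covariate (-0.61) and without any 1 of anti-RGMa mice 1, 2, 3, 5 and 6 and isotype control mice 1, 2 and 4 (-0.63 to -0.87 over all single omissions), and its call in anti-RGMa over naïve mice was lost without anti-RGMa mouse 4 or naïve mouse 1 or 3 (0.77 to 1.20).

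**Figure D2:**
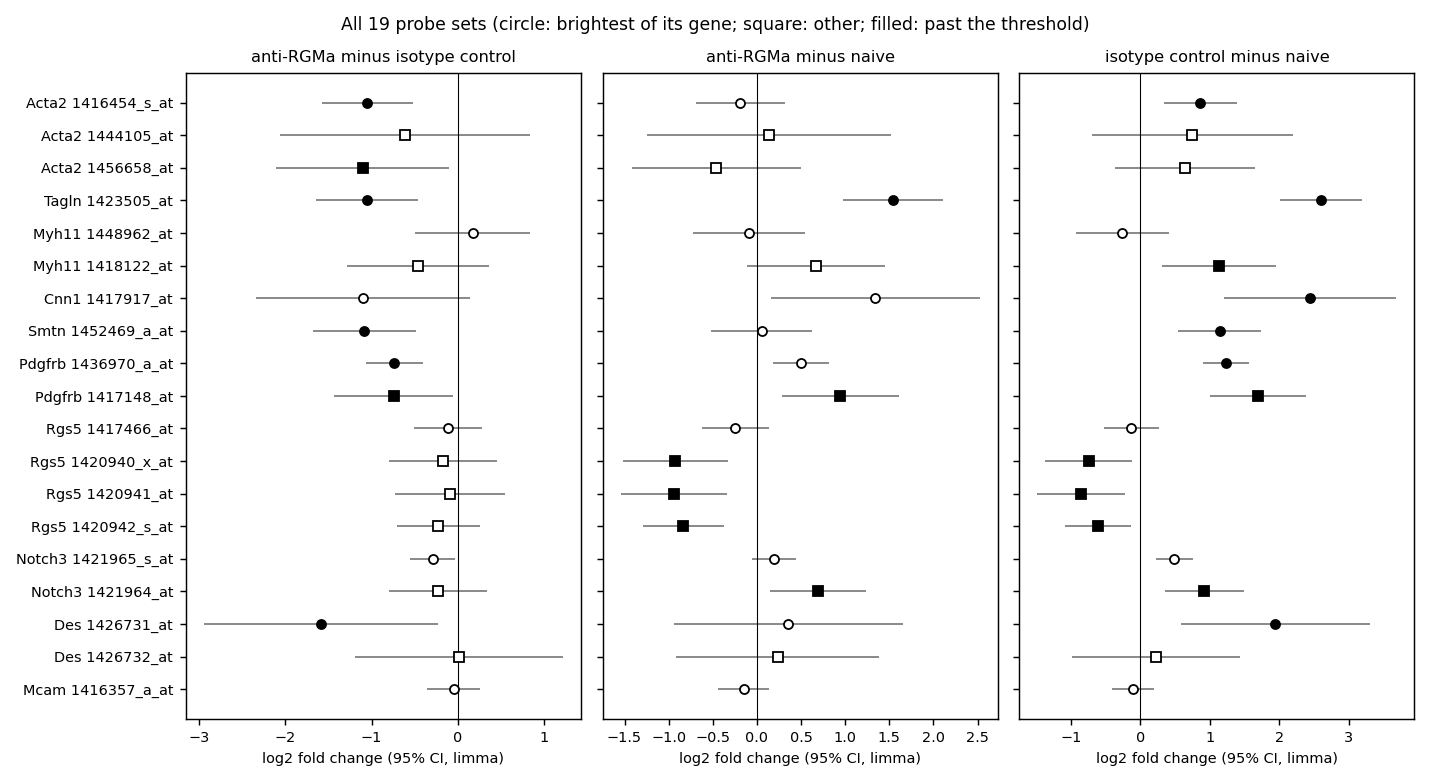
Log2 fold change (x axis) of the 19 probe sets in the 3 comparisons, with 95% intervals from limma. Circles are the brightest probe set of a gene, squares the others, and filled symbols passed the threshold. The filled symbols lie left of 0 between the antibodies, and all 4 probe sets of Rgs5 lie left of 0 in both comparisons with naïve mice, 3 of them filled.

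Des codes for desmin, the intermediate filament of muscle cells, which also marks pericytes. Its log2 signal (1426731_at) had a lowest value of 6.47, a median of 7.15 and a highest of 7.63 in anti-RGMa mice. It was 7.64, 7.43, 8.56, 11.91 and 7.89 in isotype control mice 1 to 5, and 5.65 to 7.66 in naïve mice with a median of 6.83. Isotype control mouse 4 stood far above all others. The order of the isotype control mice followed the skeletal muscle signal at the top, with mice 4, 3 and 5 highest in both.

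The log2 difference of Des between the antibodies was -1.59 (SE 0.64, limma adjusted p = 0.327), and without isotype control mouse 4 it was -0.78. It was no longer called with the muscle covariate (-0.62), without isotype control mice 3, 4 and 5 (-0.44), or in a fit of the 2 antibody groups alone. Against naïve mice, isotype control mice were higher by 1.94 (SE 0.64, limma adjusted p = 0.020), and by 1.14 without mouse 4. That call was lost with the muscle covariate (0.54) and without mice 3, 4 and 5 (0.79). The second probe set of Des (1426732_at) was dim and was not called in any comparison, with 0.01 between the antibodies. It was low in isotype control mouse 4 (3.77), where the first was highest, so that the probe sets disagree.

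**Figure D3:**
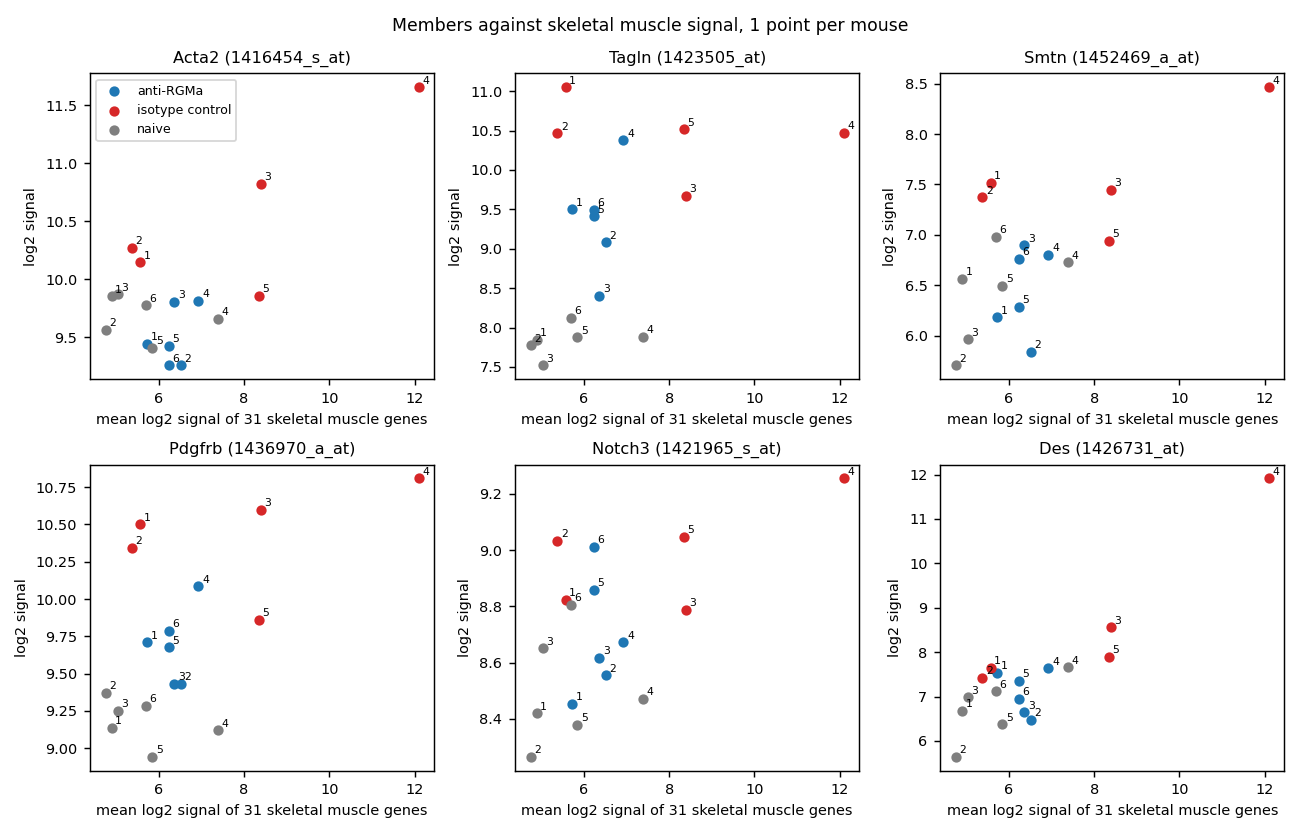
Log2 signal of 6 members (y axis) against the mean log2 signal of 31 skeletal muscle genes (x axis), 1 point per mouse with its replicate number. Acta2, Smtn and Des are highest in isotype control mouse 4, where the muscle mean is 12.10, while Tagln is highest in isotype control mouse 1, where it is 5.57.

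Rgs5, a regulator that speeds the shutting off of G protein signals and a widely used pericyte marker, gave different answers on its 4 probe sets. The brightest (1417466_at) was not called in any comparison. Its log2 signal was 11.38 to 12.34 in anti-RGMa mice with a median of 11.78. It was 12.04, 11.82, 11.84, 12.47 and 11.51 in isotype control mice 1 to 5, and 11.76 to 12.23 in naïve mice with a median of 12.15. Here the groups overlapped throughout. The difference between the antibodies was -0.11, with a 95% interval of -0.51 to 0.28, and that of anti-RGMa from naïve mice was -0.24, with an interval of -0.62 to 0.14.

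The 3 other probe sets of Rgs5 were called lower in both groups with EAE than in naïve mice, where 10.0% of all probe sets were called lower in anti-RGMa and 16.3% in isotype control mice. On 1420942_s_at the log2 signal was 8.44 to 9.35 in anti-RGMa mice with a median of 9.09, then 9.12, 8.62, 9.73, 9.85 and 9.02 in isotype control mice, and 9.59 to 10.32 in naïve mice with a median of 9.85. All anti-RGMa mice lay below all naïve mice, whereas isotype control mice 3 and 4 reached the naïve range. The log2 difference of anti-RGMa from naïve mice was -0.83 (SE 0.21, limma adjusted p = 0.0061), and -0.92 and -0.94 on 1420940_x_at and 1420941_at.

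For isotype control against naïve mice these 3 probe sets of Rgs5 gave -0.61, -0.75 and -0.85 (limma adjusted p = 0.035, 0.048 and 0.027). These calls were fragile. That of 1420942_s_at was lost without any 1 of isotype control mice 1, 2 and 5 and naïve mice 1, 2 and 3 (-0.45 to -0.75), that of 1420941_at without any 1 of isotype control mice 1, 2 and 5 and naïve mice 1 and 2 (-0.67 to -1.06), and that of 1420940_x_at in 11 of the 17 single omissions (-0.60 to -0.96). Between the antibodies none of the 4 probe sets was called (-0.23 to -0.09). The 3 probe sets share the target accession in the annotation and are not independent measures. The suffixes _s_at and _x_at mark probes that may bind other transcripts.

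**Figure D4:**
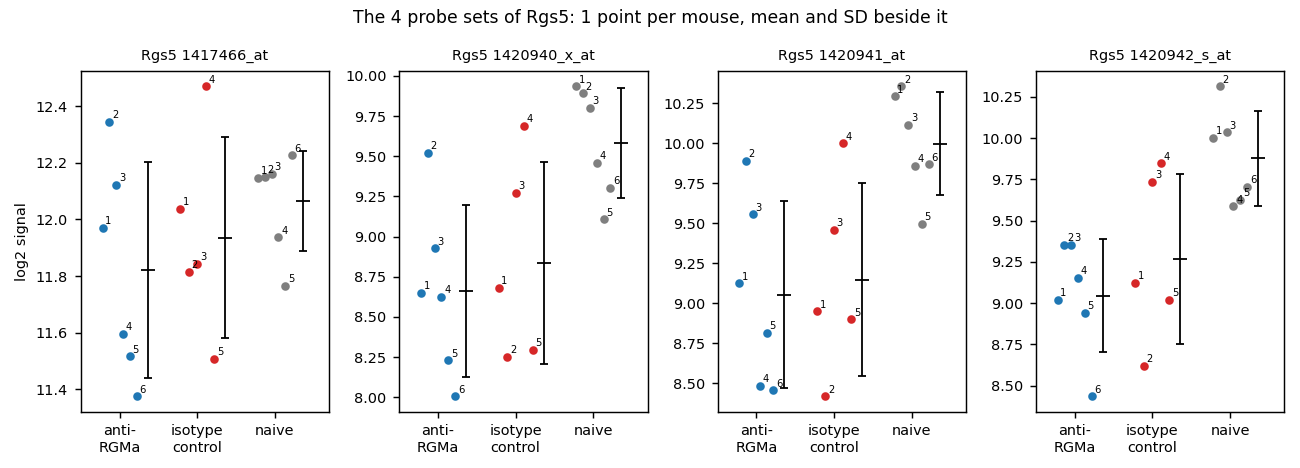
Log2 signal (y axis) of the 4 probe sets of Rgs5 in anti-RGMa, isotype control and naïve mice, 1 point per mouse with its replicate number and the mean ± SD beside it (n = 6, 5 and 6). On 1417466_at the groups overlap, while on the 3 others the anti-RGMa mice lie mostly below the naïve mice, with no overlap on 1420942_s_at.

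Notch3 codes for the Notch receptor of mural cells, which is needed for the maturation of arterial smooth muscle. Its log2 signal (1421965_s_at) had a lowest value of 8.45, a median of 8.65 and a highest of 9.01 in anti-RGMa mice. It was 8.82, 9.03, 8.79, 9.25 and 9.05 in isotype control mice, and 8.27 to 8.80 in naïve mice with a median of 8.45. The isotype control mice were the highest as a group, but the groups overlapped. Isotype control mice exceeded naïve mice by 0.49 (SE 0.12, limma adjusted p = 0.0037), under the fold of 1.5. The difference between the antibodies was -0.29 (SE 0.12) and that of anti-RGMa from naïve mice 0.20 (SE 0.12), and neither was called. The dimmer probe set (1421964_at) was called higher in both groups with EAE, by 0.69 in anti-RGMa and by 0.92 in isotype control mice. The call in anti-RGMa mice was lost with the muscle covariate (0.59), with quantile normalization (0.59) and in 8 of the 17 single omissions (0.55 to 0.87), and that in isotype control mice was lost with the covariate (0.58) and without isotype control mice 3, 4 and 5 (0.66).

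Mcam (CD146), an adhesion molecule of endothelial and mural cells, was flat. Its log2 signal (1416357_a_at) was 8.73 to 9.22 in anti-RGMa mice with a median of 8.95, then 9.05, 9.11, 9.07, 9.44 and 8.50 in isotype control mice, and 8.92 to 9.34 in naïve mice with a median of 9.13. The groups overlapped. Mcam differed by -0.05 between the antibodies (95% interval -0.35 to 0.26), by -0.15 between anti-RGMa and naïve mice (-0.44 to 0.14) and by -0.10 between isotype control and naïve mice (-0.41 to 0.20), so that each interval lies inside a 1.5-fold change.

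Counted over the members, isotype control mice had 6 of 10 genes called higher than naïve mice (Acta2, Tagln, Cnn1, Smtn, Pdgfrb and Des) and 0 lower, where 17.1% of all genes were called higher and 14.8% lower. With the muscle covariate 3 remained called, Tagln, Cnn1 and Pdgfrb, and without isotype control mice 3, 4 and 5 Smtn was called beside these. Anti-RGMa mice had 1 gene called higher than naïve mice, Tagln, and 0 lower, where 13.1% of all genes were called higher and 8.24% lower. By probe set, 7 of the 19 were called lower between the antibodies and 0 higher, where 2.55% of all probe sets were lower and 1.42% higher. Anti-RGMa mice had 3 probe sets called higher and 3 lower than naïve mice (11.5% and 10.0% of all probe sets), and isotype control mice had 9 higher and 3 lower (15.5% and 16.3%). The comparisons share mice, so that a high isotype control value enters both the comparison with naïve mice and that between the antibodies.

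Other genes of smooth muscle mostly differed in the same direction as the called contractile members, though not all did. Of 23 further contractile and cytoskeletal genes, 7 were called lower in anti-RGMa than in isotype control mice and 0 higher, with a median log2 difference of -0.27 and 18 of 23 differences below 0. The 5 above 0, none of them called, were Kcnmb1, Pln, Ppp1r14a, Synpo2 and Csrp1. Those with the smallest p were Cald1 (caldesmon, -0.74), Cnn2 (calponin 2, -0.68), Tagln2 (transgelin 2, -0.63) and Mustn1 (-1.11). Without anti-RGMa mouse 2 only 3 were called, and Cnn2 (-0.58) and Tagln2 (-0.53) were not. The call of Tagln2 was lost also without anti-RGMa mouse 3. In isotype control against naïve mice 11 of the 23 were called higher and 1 lower, with a median of 0.51 and 19 of 23 differences above 0, led by Tagln2 (3.07) and Cnn2 (2.95), which are calponin and transgelin forms that many non-muscle cells make. Of 8 transcription factors and cofactors of smooth muscle and mural cells, 0 were called between the antibodies, and 2 were called higher in isotype control than in naïve mice, among them Mrtfa, a cofactor of SRF (1.16). In that comparison with naïve mice 17.1% of all genes were called higher and 14.8% lower. Tbx18, a transcription factor of mural cells, differed there by 1.26 and was not called.

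Outside the members, 1 gene of the PDGF and Notch systems was called between the antibodies. Of 5 further PDGF ligand and receptor genes 0 were called. In isotype control against naïve mice 3 were higher and 1 lower, with 1.07 for Pdgfb, the ligand of Pdgfrb, and -0.96 for Pdgfd, a second ligand of that receptor. Of 15 further Notch genes only Jag1, a Notch ligand of endothelium and smooth muscle, was called between the antibodies (-0.78). Against naïve mice 3 Notch genes were higher and 5 lower in isotype control mice, with 1.33 for Notch2 and -1.64 for Hes5, a Notch target of neural progenitors and glia, which was -1.12 without isotype control mouse 4. The shares over all genes in this comparison were 17.1% higher and 14.8% lower.

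Further pericyte genes gave a mixed picture. Of 17 measured, Gja4, a connexin that arterial endothelium also makes, was called lower between the antibodies (-0.61). Its call was lost without anti-RGMa mouse 3 or 5 or isotype control mouse 5 (-0.55 to -0.72 over all single omissions). The median log2 difference of the 17 was -0.02. In isotype control against naïve mice 11 of the 17 differences were below 0, with a median of -0.22. There 5 of the 17 were called higher and 1 lower (2 lower without naïve mouse 1), where 17.1% of all genes were called higher and 14.8% lower. The largest differences were those of the sphingosine phosphate receptor gene S1pr3 (3.44) and Anpep (3.07), an aminopeptidase that myeloid cells also make. Macrophage genes moved with this, since all 12 of a macrophage list were called higher in both groups with EAE, with mean log2 signals of 11.10 to 12.03 in anti-RGMa mice, 11.33 to 12.20 in isotype control mice and 7.75 to 8.46 in naïve mice. Between the antibodies 3 of the 12 were called lower in anti-RGMa mice, namely Mrc1 (-1.05), Msr1 (-1.07) and Cd14 (-0.61). The median log2 difference of the list was -0.18, with 4 differences above 0. The call of Msr1 was lost in 7 of the 17 single omissions and that of Cd14 in 6. The part of macrophages in the rise of Anpep was not tested.

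Regulators of vessel tone and of G protein signals related to Rgs5 were called in 2 of 11 cases between the antibodies. Rgs4, which neurons make in quantity, was higher in anti-RGMa mice (0.67), a call lost without anti-RGMa mouse 1 (0.44) or isotype control mouse 5. Pde5a, the cyclic GMP phosphodiesterase of smooth muscle, was lower (-0.89), on an _x_at probe set that may bind other transcripts. Its groups overlapped, with log2 signals of 6.69 to 8.33 in anti-RGMa and 7.80 to 9.34 in isotype control mice. In isotype control against naïve mice 2 of the 11 were higher and 3 lower, with 1.59 for Rgs16 and -1.44 for Gucy1b1, a subunit of the nitric oxide receptor. Of all genes 17.1% were higher and 14.8% lower there, so that the count of higher genes lay near that share. Of 7 genes of intermediate filaments and their partners, related to Des, 0 were called between the antibodies, and 4 were higher in isotype control than in naïve mice, with 2.47 for Vim (vimentin) and 1.31 for Nes (nestin).

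Fibroblast and myofibroblast genes were lower between the antibodies, as Acta2 and Tagln were. Of 16, 14 were called lower in anti-RGMa than in isotype control mice, with a median log2 difference of -1.33. Among them were Ltbp2 (-1.82), Col1a1 (type I collagen, -1.87), Tnc (tenascin C, -1.43) and Fn1 (fibronectin, -0.91). Against naïve mice 13 were higher and 1 lower in isotype control mice, led by Postn (periostin, 4.70) and Ltbp2 (4.14). In anti-RGMa against naïve mice 11 of the 16 were called higher and 0 lower, with a median of 1.39, where Tagln was called higher (1.54) and Acta2 was not called (-0.19). Between the antibodies the count was 9 with the muscle covariate and 7 without isotype control mice 3, 4 and 5. Of 13 endothelial genes 2 were called, Tie1 (-0.72) and Cdh5 (VE-cadherin, -0.71), and Cdh5 was not called without isotype control mouse 4 (-0.57), while 3 were called without anti-RGMa mouse 5. In isotype control against naïve mice 7 were higher and 1 lower, with 1.62 for Tie1 and 1.23 for Cdh5, where 17.1% of all genes were higher and 14.8% lower. The part of fibroblasts or myofibroblasts in the signals of Acta2, Tagln and Pdgfrb was not tested.

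**Figure D5:**
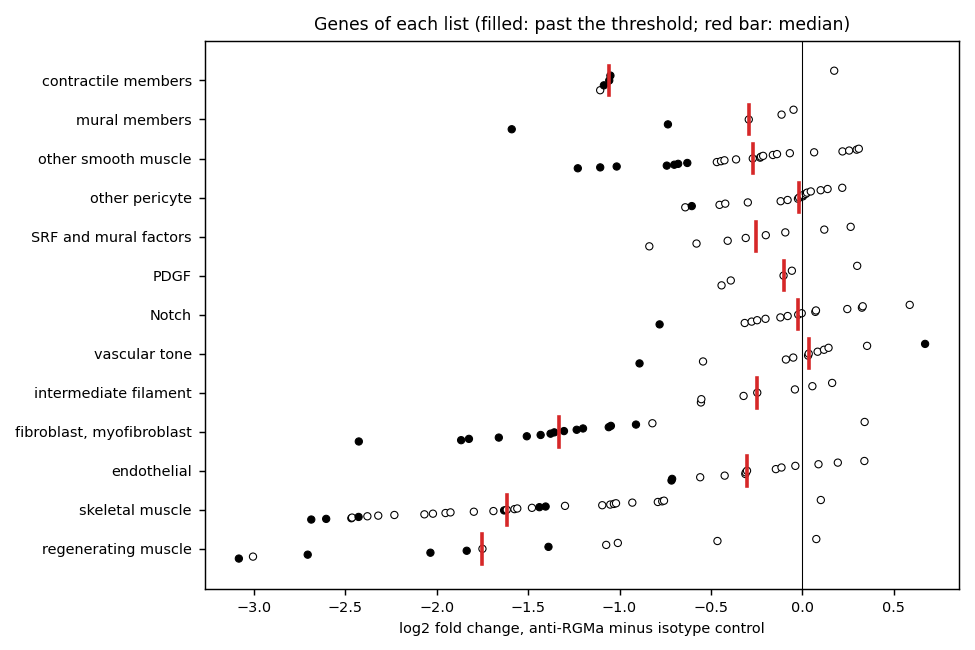
Log2 fold change (x axis) between anti-RGMa and isotype control mice for the genes of each list (rows), 1 point per gene by its brightest probe set. Filled points were called, and the red bar is the median of the list. The medians of the skeletal muscle (-1.62) and regenerating muscle genes (-1.75) lie furthest left. Those of the contractile members (-1.06) and of the fibroblast and myofibroblast genes (-1.33) lie left of those of the other smooth muscle (-0.27) and other pericyte genes (-0.02).

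The genes most like 4 of the members were sought among the 9914 genes whose log2 signal averaged 8 or more, by the root mean square difference of centred log2 signals over the 17 mice. For Acta2, which spread by 0.59 on this scale, they were Csrp2 (0.27), a LIM protein of smooth muscle, Olfml2b (0.30) and Col4a2 (0.32), a basement membrane collagen chain. For Tagln, which spread by 1.14, they were Cks1b (0.33), Fosl2 (0.35) and Dab2 (0.39). For Pdgfrb, which spread by 0.55, they were Cald1 (0.17), Cdh5 (0.18) and Fkbp9 (0.19). For Myh11, which spread by 0.50, they were Rai1 (0.37), Bcl9 (0.37) and Fam214a (0.38), which differed from it by most of that spread. The signal of Myh11 itself lay below 8 in all mice, so genes at its own level were not searched. Whether it has a close partner was therefore not tested. These are descriptions over mice that share groups and, in part, muscle signal.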

How the data were processed

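Signals of 17 Affymetrix Mouse Genome arrays were used, 1 per mouse. The deposited intensity values are MAS5.0 signals that the authors scaled globally. Both MAS5 and affy appear in the submitters' processing notes, and the scaling target is not given in the sources used here. After trimming 2% from each end, the mean signal was the same in every array (499.9). No detection calls were used, so that dim signals carry background. Gene names are those of the platform's annotation. Of 45101 probe sets, 932 with several genes and 9211 with none were left out.

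Without offset or filter, log2 signals of the 3 groups entered a single linear model (limma 3.58.1, R 4.3.3, moderated by eBayes, no covariate), and p-values were adjusted by Benjamini-Hochberg over all 34958 probe sets. This model gives all groups 1 spread. The SD in isotype control, anti-RGMa and naïve mice was 0.71, 0.25 and 0.18 for Acta2 and 1.85, 0.48 and 0.69 for Des. For such genes the errors of comparisons with isotype control mice can be too small. A gene was counted by its probe set with the highest mean. The fit was tested on simulated data with independent normal noise, the same spread in every group and no shared muscle signal. Such data cannot show how unequal spread or muscle RNA affects the calls. The methods name limma, and the threshold between the antibodies is that of the study. All 10 genes were named. Of each other list described, at most 4 genes called between the antibodies and the 2 with the largest change between isotype control and naïve mice were named. The genes and lists were chosen with earlier results of these data known, so that no list is independent evidence. Same-numbered mice of different groups deviated from their group means with correlations of -0.064 to 0.071, so that no strong pairing by number was seen. Such correlations over all genes cannot exclude a weaker link. Alternatives covered scaling, offset, filter, probe set choice, features and arrays in the fit, variance model, array weights, a replicate block, a skeletal muscle covariate and omitted arrays. Promoter motifs were searched on both strands. Figures were drawn with matplotlib 3.10.9.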

Additional observations from a re-analysis of the deposited data

Results flagged for a closer look

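Of 57 groups of 5 or 6 mice tested over the 19 probe sets, 5 held a mouse set apart from the rest of its group by Dixon's test at the 95% level, which chance alone gives in about 1 of 20 groups. The log2 signal of Des (1426731_at) was 11.91 in isotype control mouse 4, against 7.43 to 8.56 in the other isotype control mice, and this mouse also had the highest skeletal muscle signal. Pdgfrb (1417148_at) was 7.70 in anti-RGMa mouse 4, with 7.13 to 7.33 in the other anti-RGMa mice. The dim probe set 1426732_at of Des was 3.33 in anti-RGMa mouse 1, with 5.07 to 5.53 in the others, and the dim probe set 1444105_at of Acta2 was 0.57 in anti-RGMa mouse 6, with 3.55 to 4.66 in the others. Myh11 (1448962_at) was 6.98 in naïve mouse 6, with 6.16 to 6.46 in the other naïve mice.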

How the results depend on the processing

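In 13 alternatives and 17 omissions of 1 array, the count of the 10 genes called kept within 1.5 times its value with these exceptions. With the mean of the probe sets of a gene, 2 genes were called higher (Tagln and Pdgfrb) and 1 lower (Rgs5) in anti-RGMa than in naïve mice. With the muscle covariate 3 were higher in isotype control than in naïve mice. Between anti-RGMa and naïve mice the omissions gave 1 to 2 genes called higher, with 2 without anti-RGMa mouse 2 or naïve mouse 3. Omissions gave 5 to 6 genes lower between the antibodies and 6 higher in isotype control than in naïve mice. With the replicate block the counts were 5, 6 and 1, the same as without it, and of the members' calls only that of Acta2 1456658_at between the antibodies (-1.13) was lost.

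The signs of the following differences of members, none of them called, turned, and the cause was not tested. Between anti-RGMa and naïve mice Smtn was -0.051 with quantile normalization, -0.046 with median scaling and -0.060 with the muscle covariate, and with that covariate Acta2 1444105_at was -0.12 and Des 1426731_at -0.078. Between isotype control and naïve mice Acta2 1444105_at was -0.093 with the covariate. The mean of the probe sets of Myh11 gave -0.14 between the antibodies, 0.29 for anti-RGMa and 0.43 for isotype control over naïve mice. Between the antibodies Des 1426732_at was -0.0049 with the replicate block and -0.074 with the covariate, and with the covariate Mcam was 0.025, Notch3 1421964_at 0.0046, Rgs5 1420940_x_at 0.035 and Rgs5 1420941_at 0.13. Without isotype control mice 3, 4 and 5, Notch3 1421964_at was 0.029, Rgs5 1420940_x_at 0.19, Rgs5 1420941_at 0.37 and Rgs5 1420942_s_at 0.17. Outside the members, the skeletal muscle gene Mylpf, called at -2.43 with all mice, turned to 0.45 in that setting.

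Over single omissions, signs turned between the antibodies for Des 1426732_at (-0.30 to 0.35), Mcam (-0.18 to 0.053), Myh11 1448962_at (-0.075 to 0.38), Rgs5 1417466_at (-0.22 to 0.020), Rgs5 1420940_x_at (-0.35 to 0.035) and Rgs5 1420941_at (-0.27 to 0.12). They turned between isotype control and naïve mice for Des 1426732_at (-0.22 to 0.54) and Mcam (-0.20 to 0.030), and between anti-RGMa and naïve mice for Acta2 1444105_at (-0.12 to 0.74), Des 1426732_at (-0.20 to 0.58), Myh11 1448962_at (-0.18 to 0.12) and Smtn (-0.083 to 0.18).

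Median scaling put the median over all genes at -0.18, against -0.04, between isotype control and naïve mice, with 4536 higher and 7569 lower calls against 5410 and 5698, and gave 3465 and 4941 calls against 4026 and 3496 between anti-RGMa and naïve mice. An offset of 32 left 160 higher and 657 lower calls between the antibodies, against 495 and 893. A filter at a mean log2 signal of 7 removed Cnn1, Myh11 and Smtn. Dim signals limit these genes most.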
